A study of Homo sapiens with 12 samples.

Results

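The genes described here encode enzymes of the tricarboxylic acid (TCA) cycle and the pyruvate dehydrogenase complex: PDHA1, CS, IDH3A, IDH2, OGDH, DLST, SUCLG1, FH and MDH2. They were taken by symbol from the deposited gene count table, where all 9 were found among 57353 rows and all 9 passed the low-count filter that left 14955 genes. The cells were HepG2, a human hepatocellular carcinoma line labelled wild type, so each culture stands for 1 line. Cultures received 10 µM sorafenib, a multikinase inhibitor used in liver cancer, or its DMSO vehicle for 12 h, and were lysed in cycloheximide, which holds ribosomes on their mRNA. Lysates, usually of 2 dishes per condition combined, were run on sucrose gradients, and RNA was sequenced from a polysome pool and from a light pool holding low-molecular complexes, free ribosomal subunits and single ribosomes. The 4 groups are sorafenib polysome, vehicle polysome, sorafenib light and vehicle light, with 3 libraries each, and per the labels both fractions of a numbered culture came from the same cells.

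The TCA cycle oxidises acetyl units in the mitochondrial matrix, releasing carbon dioxide and passing electrons to NAD and to the respiratory chain. Pyruvate dehydrogenase feeds it by turning pyruvate into acetyl-CoA, and citrate synthase, encoded by CS, joins that acetyl group to oxaloacetate. In liver cells the same intermediates also supply gluconeogenesis, lipid synthesis and amino acid metabolism. The enzymes of the cycle are nuclear-encoded, translated on cytosolic ribosomes and imported into mitochondria.

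Total counts per library ran between 511065 and 13336689, and sorafenib light libraries 1 and 2 were the shallowest, at 2060384 and 511065 counts. Replicate libraries of the sorafenib light group correlated at 0.80 to 0.93 in log2 CPM (counts scaled to the size of their library), against 0.95 to 0.99 within the other 3 groups, so results for that group rest on less similar libraries. Its low values were those of library 2, the shallowest, at 0.82 with library 1 and 0.80 with library 3, while libraries 1 and 3 were at 0.93. Markers of hepatocytes (ALB, APOA1, AFP, TTR, SERPINA1, HNF4A, FGB and TF) had a summed level of 27214 to 36165 CPM in sorafenib libraries and 4540 to 14158 in vehicle libraries. Of these 8 genes, 5 rose and 1 fell with sorafenib in the polysome fraction, and the same counts held in the light fraction. Over all tested genes, 20.9% rose and 28.8% fell on polysomes, and 11.7% and 17.7% in the light fraction. Mean polysome levels of TTR and HNF4A were lower with sorafenib, at 82.0 against 156 CPM and 105 against 111 CPM. Markers of other cells (PTPRC, PECAM1, COL1A1, COL1A2 and DES) gave 5 to 21 counts per library in all, and DES was at 0 in 7 libraries. Mitochondrially encoded genes held 0.312 to 0.613% of the counts of the sorafenib polysome libraries, 0.772 to 1.08% of the vehicle polysome libraries, 7.98 to 9.86% of the sorafenib light libraries and 8.87 to 14.3% of the vehicle light libraries. Their part in the results was not tested. All levels are relative to the other RNA of the same library, and with no unfractionated RNA among the 12 libraries, a change in a transcript's total amount and a change in its share on polysomes cannot be told apart.

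Sequences just upstream of 4 of the genes are shown as examples. Sorafenib raised 3 of these genes in the polysome fraction (CS, FH and PDHA1). In the light fraction it raised FH, PDHA1 and the remaining one, MDH2. Each sequence is the 250 bases before the RefSeq gene start in GRCh38.p14, written 5′ to 3′ on the gene's strand. The windows are chr1:241519756-241520005 (minus strand) for FH, chr7:76047856-76048105 (plus strand) for MDH2, chrX:19343677-19343926 (plus strand) for PDHA1 and chr12:56300331-56300580 (minus strand) for CS. Capitals mark matches, on either strand, to the CCAAT box (CCAAT), the GC box (GGGCGG), an ETS-family core (CCGGAAG), an ATF/CREB site (TGACGTNA), a C/EBP-ATF composite site (TGATGNAA), an estrogen-related receptor site (TCAAGGTCA) or an NRF1 core. None of the capitals overlaps a match to another motif of the list.
FH: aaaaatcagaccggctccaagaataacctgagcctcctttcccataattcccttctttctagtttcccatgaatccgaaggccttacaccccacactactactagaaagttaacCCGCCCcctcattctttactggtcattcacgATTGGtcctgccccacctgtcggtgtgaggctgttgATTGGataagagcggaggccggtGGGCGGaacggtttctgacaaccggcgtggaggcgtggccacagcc
MDH2: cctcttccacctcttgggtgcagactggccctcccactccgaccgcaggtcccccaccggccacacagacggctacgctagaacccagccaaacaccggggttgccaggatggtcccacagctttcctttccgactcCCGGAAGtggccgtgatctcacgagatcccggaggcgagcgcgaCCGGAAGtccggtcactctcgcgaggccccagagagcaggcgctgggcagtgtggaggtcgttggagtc
PDHA1: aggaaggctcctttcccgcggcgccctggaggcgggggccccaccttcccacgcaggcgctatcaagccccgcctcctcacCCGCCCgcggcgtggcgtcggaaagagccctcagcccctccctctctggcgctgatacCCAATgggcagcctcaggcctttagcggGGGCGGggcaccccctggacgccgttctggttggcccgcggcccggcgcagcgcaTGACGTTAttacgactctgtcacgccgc
CS: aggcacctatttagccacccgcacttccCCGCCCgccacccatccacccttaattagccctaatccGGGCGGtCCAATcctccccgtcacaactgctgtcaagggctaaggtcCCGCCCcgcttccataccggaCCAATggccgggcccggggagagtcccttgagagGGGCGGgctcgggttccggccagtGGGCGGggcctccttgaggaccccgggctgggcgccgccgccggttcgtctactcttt
The windows of FH, PDHA1 and CS hold both the CCAAT box and the GC box, which occur in 32.0% and 42.6% of the 35114 windows of that length in the table. Of the 8 members with a window, 3 hold the CCAAT box, all of them shown here, and 5 hold the GC box. IDH3A, called in neither treatment comparison, also holds the GC box, and SUCLG1, likewise not called, holds none of these motifs. MDH2 holds neither and instead has the ETS-family core in 2 places, a motif found in 8.52% of all windows. PDHA1 alone of the 8 members with a window has the ATF/CREB site, found in 2.67% of all windows. No window of those 8 holds the composite site or the estrogen-related receptor site, which occur in 3.14% and 0.319% of all windows. IDH2 and DLST, which also rose on polysomes, are not shown: the IDH2 window holds none of these motifs, and that of DLST holds the GC box in 2 places and the ETS-family core in 1, with no CCAAT box. OGDH has no window in the table. These matches are letters in a window, and no binding was measured.

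In the polysome fraction, sorafenib raised 6 of the 9 enzymes: FH, OGDH, DLST, PDHA1, CS and IDH2. Their increases were between 0.79 and 1.61 on the log2 scale, and SUCLG1, MDH2 and IDH3A, with 0.53, 0.57 and 0.51, did not pass the test. None fell. Of all 14955 genes tested, 20.9% were called higher and 28.8% lower in this comparison, by edgeR's quasi-likelihood test at an adjusted p under 0.05. The median log2 change of the 9 was 1.13, against -0.26 over all tested genes. For 8 of the 9, every sorafenib polysome library lay above every vehicle polysome library, a pattern shown by 25.3% of tested genes, and IDH3A was the exception; none showed the reverse, found in 35% of tested genes.

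In the light fraction the 9 enzymes did not move together. IDH2, MDH2, PDHA1 and FH rose by 1.20 to 1.84 on the log2 scale, none fell, and 5 did not pass the test, with values from -0.81 for OGDH to 0.40 for IDH3A. Over all tested genes 11.7% were called higher and 17.7% lower in this comparison. The median of the 9 was 0.40, against -0.12 over all genes. In 4 of the 9 every sorafenib light library lay above every vehicle light library, as in 15% of tested genes, and in OGDH every one lay below, as in 24.6%. Set side by side, 3 genes (IDH2, FH and PDHA1) rose in both fractions, 3 (CS, OGDH and DLST) passed the test on polysomes but not in the light fraction, MDH2 passed it in the light fraction but not on polysomes, and IDH3A and SUCLG1 passed it in neither.

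**Figure D1:**
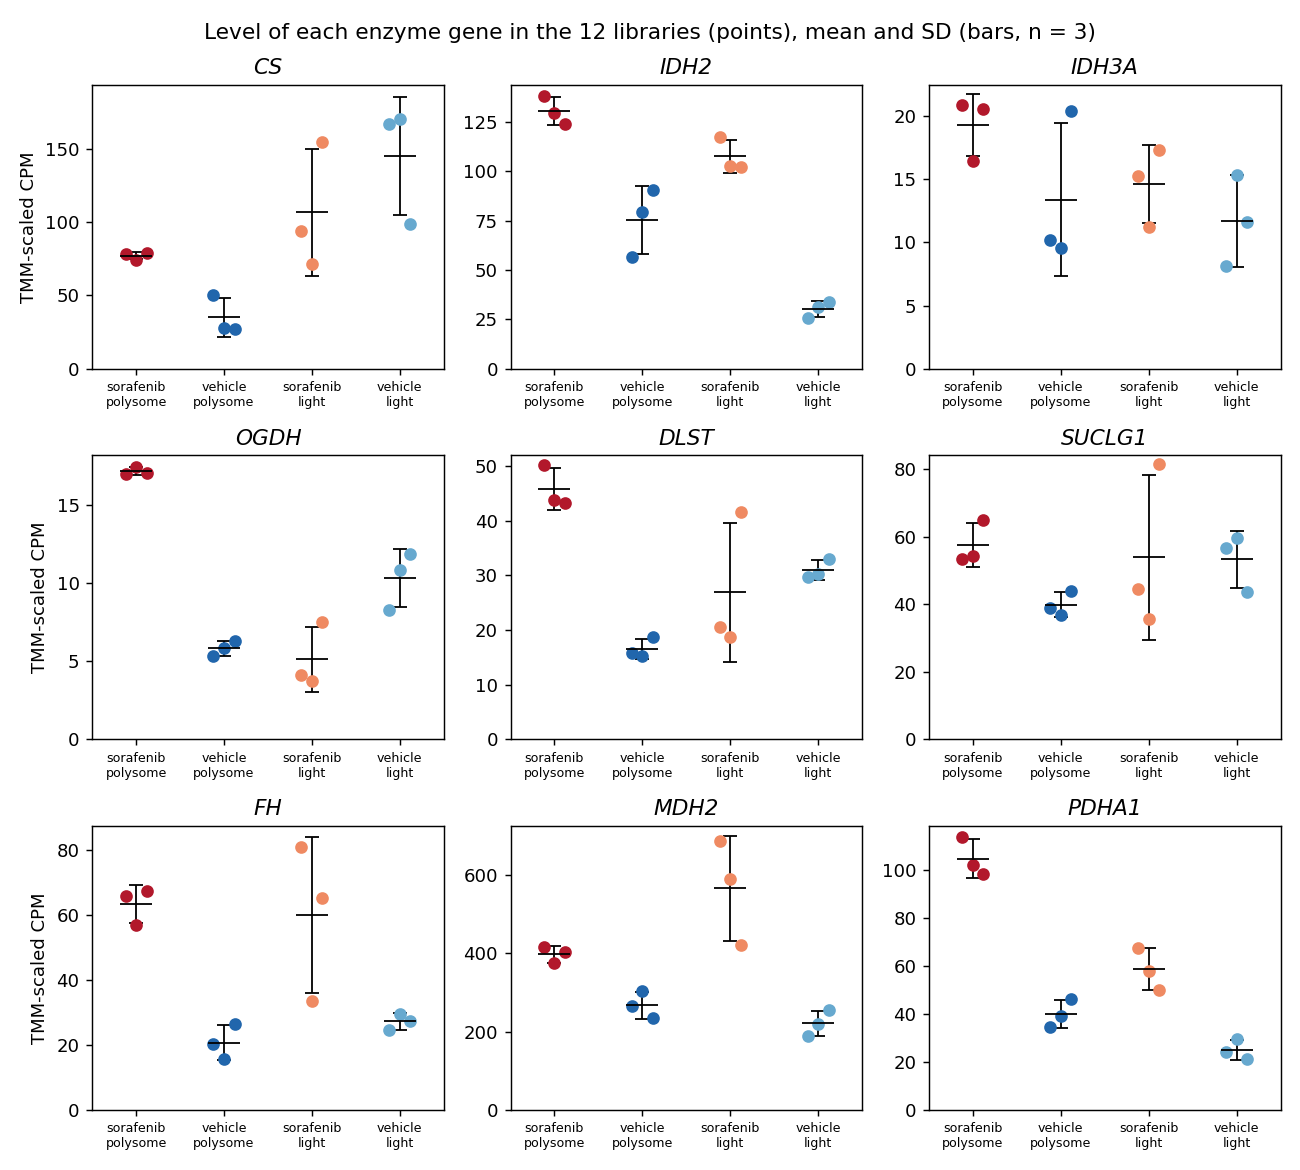
Level of each of the 9 enzymes in every library, in TMM-scaled CPM on linear axes that start at 0, by group; points are libraries and bars are group means with SD (n = 3). The sorafenib polysome libraries lie close together, and above the vehicle polysome libraries for every gene but IDH3A, whereas the sorafenib light libraries spread widely for CS, OGDH, DLST, SUCLG1 and FH.

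PDHA1 encodes the catalytic E1 alpha subunit of pyruvate dehydrogenase, the subunit whose phosphorylation switches the complex off. Its level, in CPM after TMM scaling, was 114, 102 and 98.3 in the sorafenib polysome libraries, against 34.5, 39.2 and 46.0 in the vehicle polysome libraries. Its light-fraction level was 67.5, 58.0 and 50.0 with sorafenib, against 24.2, 29.5 and 21.0 with vehicle. Sorafenib libraries were above vehicle libraries without overlap in both fractions. The log2 change was 1.39 ± 0.21 on polysomes (SE, n = 3 per group, edgeR adjusted p = 4.14e-05) and 1.22 ± 0.23 in the light fraction (adjusted p = 0.000691). The 4 groups stood in the order sorafenib polysome, sorafenib light, vehicle polysome, vehicle light, with no overlap between neighbours.

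CS catalyses the entry step of the cycle. It had 77.9, 74.3 and 79.1 CPM in sorafenib polysome libraries, against 50.5, 27.6 and 26.8 in vehicle polysome libraries. Its light-fraction levels were 93.9, 71.1 and 155 with sorafenib, against 166, 170 and 98.8 with vehicle. The polysome groups did not overlap, and the light groups did. The polysome change was 1.13 ± 0.30 (edgeR adjusted p = 0.0040), and the light-fraction change was -0.40 ± 0.30 (adjusted p = 0.325). Without both shallow sorafenib light libraries, which leaves library 3 alone in that group, the light-fraction value was 0.24. CS was the only one of the 9 whose mean was highest in the vehicle light group, at 145 ± 40.1 CPM (SD, n = 3). Its lowest mean was that of the vehicle polysome group, at 35.0 ± 13.5, a place shared by DLST, SUCLG1 and FH. Scaled by library totals alone, CS averaged 104 ± 7.20 CPM in the sorafenib polysome group and 95.6 ± 27.5 in the vehicle light group, so the top place of vehicle light turned with the scaling.

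IDH3A and IDH2 both turn isocitrate into 2-oxoglutarate, IDH3A as the catalytic subunit of the NAD-dependent enzyme of the cycle and IDH2 as the NADP-dependent mitochondrial enzyme. IDH3A was measured less clearly of the pair. It had 20.8, 16.4 and 20.5 CPM in sorafenib polysome libraries, against 10.2, 9.57 and 20.4 in vehicle polysome libraries, where library 3 overlapped the sorafenib group. The light libraries had 15.3, 11.2 and 17.3 with sorafenib, against 8.11, 15.4 and 11.6 with vehicle, again with overlap. The log2 changes were 0.51 ± 0.29 on polysomes and 0.40 ± 0.34 in the light fraction, with edgeR adjusted p of 0.144 and 0.392. Without vehicle polysome library 3 the polysome change was 0.95 (adjusted p = 0.0112). In the order of group means, no 2 neighbours of IDH3A were free of overlap.

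IDH2 separated the groups fully. Its levels were 138, 130 and 124 CPM in sorafenib polysome libraries, against 56.8, 79.4 and 90.7 in vehicle polysome libraries. Light libraries had 117, 103 and 103 CPM with sorafenib, against 25.6, 31.1 and 33.6 with vehicle. Neither pair of groups overlapped, and the vehicle light libraries were lowest. The log2 change was 0.79 ± 0.21 on polysomes (edgeR adjusted p = 0.00499) and 1.84 ± 0.23 in the light fraction (adjusted p = 2.92e-05), the largest light-fraction increase of the 9.

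OGDH and DLST encode the E1 and E2 subunits of the 2-oxoglutarate dehydrogenase complex, which makes succinyl-CoA. OGDH had 17.0, 17.4 and 17.0 CPM in sorafenib polysome libraries, against 5.31, 5.85 and 6.25 in vehicle polysome libraries. Its light-fraction levels were 4.11, 3.74 and 7.47 with sorafenib, against 8.27, 10.8 and 11.8 with vehicle. Both pairs of groups were free of overlap, sorafenib above vehicle on polysomes and below it in the light fraction. The polysome change was 1.56 ± 0.25 (edgeR adjusted p = 6.52e-05), and the light-fraction change was -0.81 ± 0.31 (adjusted p = 0.0573). The light values of OGDH rest on 7, 2 and 32 reads in the sorafenib libraries, and 2 reads allow an expected count of 0.242 to 7.22 (exact Poisson 95% interval, counting error only). Without sorafenib light library 3 the light-fraction change was -1.37 (edgeR adjusted p = 0.0248). Without libraries 1 and 2 of that group, which leaves library 3 alone, it was -0.31.

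DLST had 50.2, 43.9 and 43.3 CPM in sorafenib polysome libraries, against 15.8, 15.2 and 18.7 in vehicle polysome libraries. Its light-fraction levels were 20.5, 18.7 and 41.6 with sorafenib, against 29.8, 30.2 and 33.0 with vehicle. The polysome groups were far apart, whereas sorafenib light libraries 1 and 2 lay below the vehicle light libraries and library 3 above them. The polysome change was 1.46 ± 0.25 (edgeR adjusted p = 0.000105), and the light-fraction change was -0.08 ± 0.26 (adjusted p = 0.837). That light-fraction value turned with single libraries: it was -0.66 without sorafenib library 3 (adjusted p = 0.0895), 0.23 without library 1, 0.18 without library 2 and 0.016 without vehicle light library 3.

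SUCLG1 encodes the alpha subunit of succinyl-CoA ligase, the step of the cycle that makes a nucleoside triphosphate directly. It had 53.3, 54.3 and 65.0 CPM in sorafenib polysome libraries, against 39.0, 36.7 and 44.0 in vehicle polysome libraries. SUCLG1 in the light fraction had 44.6, 35.5 and 81.5 with sorafenib, against 56.6, 59.6 and 43.8 with vehicle. The polysome groups did not overlap, but the change of 0.53 ± 0.25 did not pass the test (edgeR adjusted p = 0.0835). The light groups overlapped, at 0.09 ± 0.26 (adjusted p = 0.819), and without sorafenib light library 3 that value was -0.41 (adjusted p = 0.285). Without both shallow sorafenib light libraries, which leaves library 3 alone in that group, the light-fraction change was 0.76.

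FH hydrates fumarate to malate. It had 65.9, 56.8 and 67.6 CPM in sorafenib polysome libraries, against 20.2, 15.6 and 26.3 in vehicle polysome libraries. The light pool gave 81.0, 33.7 and 65.2 with sorafenib, against 24.7, 29.6 and 27.4 with vehicle. Sorafenib libraries lay above vehicle libraries in both fractions, and light library 2, the shallowest, was the closest to the vehicle range. FH had the largest polysome increase of the 9, at 1.61 ± 0.26 (edgeR adjusted p = 7.01e-05), and a light-fraction increase of 1.20 ± 0.27 (adjusted p = 0.00273).

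MDH2 closes the cycle by oxidising malate to oxaloacetate. It had 416, 374 and 404 CPM in sorafenib polysome libraries, against 266, 303 and 234 in vehicle polysome libraries. Light-fraction levels of MDH2 were 686, 591 and 422 with sorafenib, against 189, 219 and 255 with vehicle. The groups did not overlap in either fraction, and the sorafenib light group had the highest mean. By library totals alone the sorafenib polysome group was higher than the sorafenib light group, at 537 ± 41.8 against 516 ± 136 CPM (SD, n = 3 each). The light-fraction change was 1.36 ± 0.25 (edgeR adjusted p = 0.000576), and the polysome change was 0.57 ± 0.24 (adjusted p = 0.0547). The polysome call depended on which libraries were fitted. With only the 6 polysome libraries fitted, MDH2 changed by 0.79 (edgeR adjusted p = 0.00406), SUCLG1 by 0.75 (adjusted p = 0.00489) and IDH3A by 0.74 (adjusted p = 0.0364). In that 6-library fit the median log2 change of all tested genes was 0.016, against -0.26 with all 12 libraries. The median of the 9 was 1.35 there, against 1.13, and the share of all genes called higher in it is not given here. When each library was left out in turn, 6 to 9 of the 9 were called higher on polysomes. In those fits 5598 to 7695 of all genes were called, higher and lower together, and the higher ones alone are not given here.

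**Figure D2:**
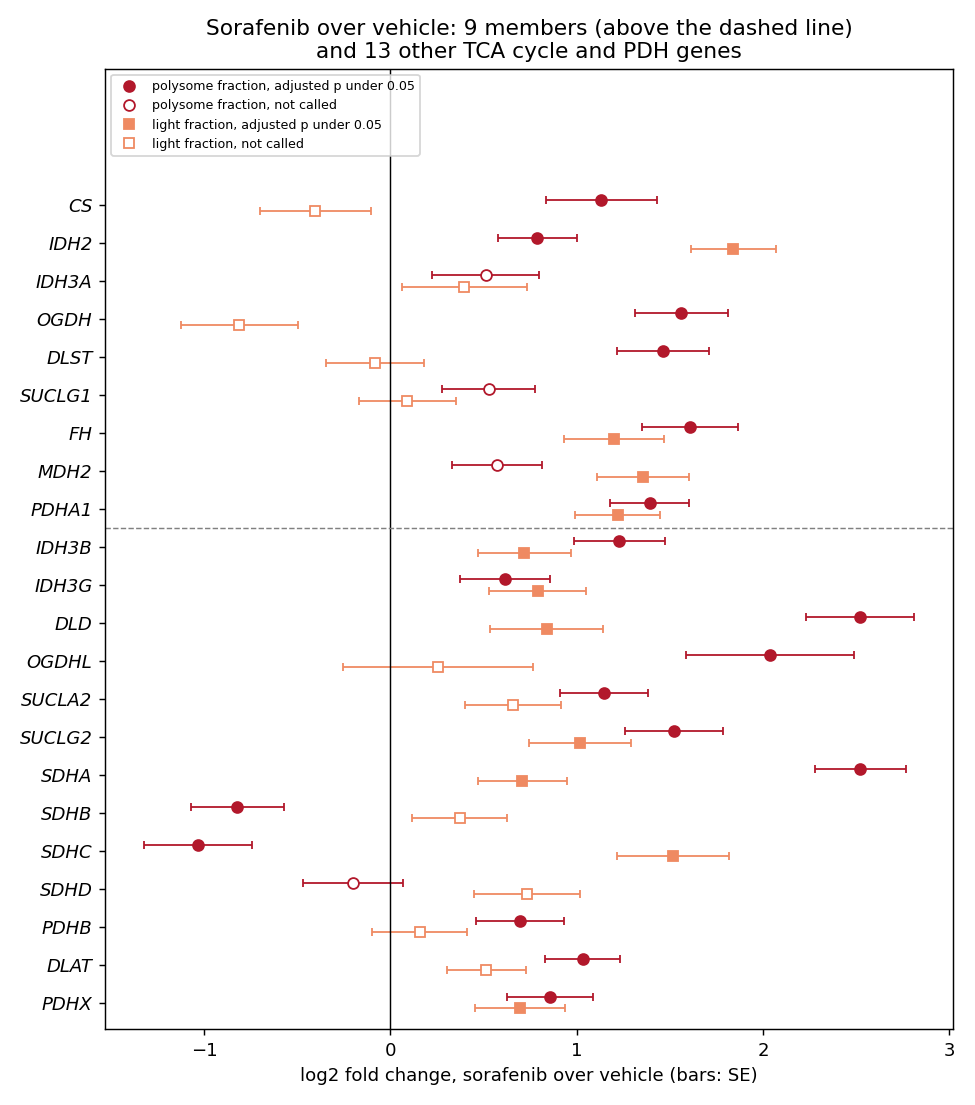
Log2 fold change of sorafenib over vehicle (x axis) for the 9 enzymes and, under the dashed line, 13 other genes of the cycle and of pyruvate dehydrogenase; circles are the polysome fraction, squares the light fraction, bars are SE, and filled symbols passed the edgeR test. Polysome values are above 0 for all 9 members, while CS, OGDH and DLST are below 0 in the light fraction without passing the test.

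Whether the sorafenib response differed between fractions was tested as the polysome change minus the light-fraction change. Over all genes, 12.8% were called higher and 10.7% lower in this test. Of the 9 enzymes, OGDH (2.37 ± 0.40, edgeR adjusted p = 0.000363), DLST (1.55 ± 0.36, adjusted p = 0.0042) and CS (1.54 ± 0.42, adjusted p = 0.0124) had the higher change on polysomes. IDH2 had the higher change in the light fraction, giving -1.05 ± 0.31 (adjusted p = 0.0183). The other 5 did not pass: MDH2 was at -0.78 (95% interval -1.50 to -0.07, adjusted p = 0.103), and SUCLG1, FH, PDHA1 and IDH3A lay between 0.12 and 0.44. For PDHA1 the interval was -0.47 to 0.81, and for FH it was -0.36 to 1.17, so differences of either size remain within the error. The call for IDH2 was lost without any 1 library other than sorafenib light 2 and vehicle polysome 1, with values of -0.71 to -1.06 in the fits that lost it. The call for CS was kept in 18 of 19 alternatives. Without both shallow sorafenib light libraries, which leaves library 3 alone in that group, the CS value was 1.15. The calls for OGDH and DLST were kept in 19 of 19 alternatives, although leaving out sorafenib light library 3 moved DLST to 2.39. SUCLG1 was called without that library, at 1.21 (adjusted p = 0.015).

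The same pattern can be read culture by culture, since each culture gave both fractions. The log2 difference of polysome minus light level for OGDH was 1.99, 2.15 and 1.16 in the sorafenib cultures, against -0.62, -0.86 and -0.89 in the vehicle cultures. For DLST it was 1.28, 1.22 and 0.06 with sorafenib, against -0.90, -0.98 and -0.81 with vehicle. With TMM scaling, both subunits of this complex were thus richer on polysomes than in the light fraction in the sorafenib cultures. The difference was small in culture 3 for DLST, and both were poorer on polysomes in every vehicle culture. By library totals alone, DLST in vehicle cultures 1 and 3 had 19.4 and 23.1 CPM on polysomes, against 18.9 and 21.5 in the light fraction. OGDH had 6.52 and 7.72 CPM there, against 5.26 and 7.72. In vehicle culture 2 both stayed lower on polysomes. For CS the difference was -0.27, 0.06 and -0.97 with sorafenib, against -1.72, -2.61 and -1.87 with vehicle. For IDH2 it was 0.24, 0.33 and 0.28 with sorafenib, against 1.14, 1.35 and 1.43 with vehicle. These 4 genes were chosen because they passed the test of that difference in the same libraries, so the values describe the calls and add no support to them.

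**Figure D3:**
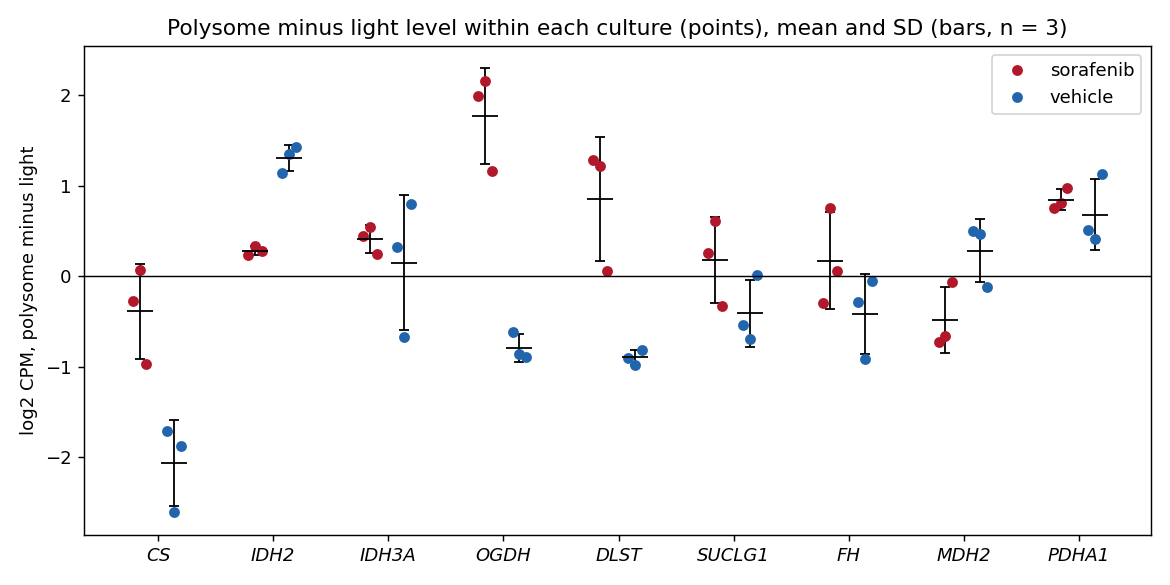
Log2 polysome level minus log2 light level of each enzyme in each of the 6 cultures; 0 marks equal scaled levels in both fractions. With TMM scaling, OGDH and DLST are above 0 in the 3 sorafenib cultures and below 0 in the 3 vehicle cultures, and CS sits far below 0 in the vehicle cultures.

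Within sorafenib-treated cells, OGDH was higher on polysomes than in the light fraction by 1.55 ± 0.30 (edgeR adjusted p = 0.00115) and PDHA1 by 0.85 ± 0.22 (adjusted p = 0.00853), and none of the 9 was lower. Over all genes, 13.4% were called higher on polysomes and 12.4% lower in these cells. DLST did not pass, at 0.65 (edgeR adjusted p = 0.0721). It did with the culture as a block (0.74, adjusted p = 0.0416) and without sorafenib light library 3 (1.52, adjusted p = 0.000586). Without both shallow sorafenib light libraries, which leaves library 3 alone in that group, DLST was at 0.27. Leaving out library 3 also brought in SUCLG1, at 0.81 (adjusted p = 0.0258). Within vehicle-treated cells, IDH2 (1.33 ± 0.22, adjusted p = 0.000123) and PDHA1 (0.68 ± 0.21, adjusted p = 0.0188) were higher on polysomes. In those cells CS (-2.05 ± 0.30, adjusted p = 4.2e-05), DLST (-0.90 ± 0.25, adjusted p = 0.00804) and OGDH (-0.83 ± 0.26, adjusted p = 0.017) were lower on polysomes, against 18.3% of all genes called higher and 17.8% lower. The direction between fractions depends on the scaling: when libraries were scaled by their totals alone, the median of all genes moved to 0.61 in sorafenib cells and 0.82 in vehicle cells, OGDH in vehicle cells was at 0.05, and DLST in vehicle cells was at -0.012 (adjusted p = 0.971). With no filter on low counts DLST in vehicle cells also lost its call, at -0.80 (adjusted p = 0.0972). The calls of OGDH and PDHA1 in vehicle cells were each lost on leaving out any 1 of 3 libraries: for OGDH these were vehicle light 2 and 3 and vehicle polysome 1, and for PDHA1 vehicle light 1 and 3 and vehicle polysome 3.

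A further 13 subunits of the cycle and of pyruvate dehydrogenase largely followed the 9 on polysomes: 10 were called higher, 2 lower and 1 neither, with a median log2 change of 1.03. Among all tested genes these calls made up 20.9% higher and 28.8% lower. The largest increases were those of SDHA, the flavoprotein subunit of succinate dehydrogenase (2.52 ± 0.24), and DLD, the E3 subunit shared by the pyruvate and 2-oxoglutarate dehydrogenase complexes (2.52 ± 0.29). OGDHL, a relative of OGDH, rose by 2.04 ± 0.45, SUCLG2 and SUCLA2, the alternative beta subunits that pair with SUCLG1, by 1.52 and 1.15, and IDH3B and IDH3G, the partners of IDH3A, by 1.23 and 0.62. The remaining pyruvate dehydrogenase subunits PDHB, DLAT and PDHX rose by 0.70, 1.03 and 0.86. Of the 13, 7 rose and none fell in the light fraction, with a median of 0.71, where 11.7% of all tested genes rose and 17.7% fell. Over the 12 fits that each left out 1 library, the polysome counts were 8 to 10 higher and 1 to 2 lower, and the light-fraction count of higher genes was 1 to 10, with 1 without sorafenib light library 3. The polysome calls of PDHB and IDH3G were lost in 6 and 5 of those fits. The light-fraction calls of SDHA, PDHX, DLD and IDH3B were lost in 10, 10, 9 and 8 of those fits.

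Succinate dehydrogenase was divided. SDHA had 295, 276 and 288 CPM in sorafenib polysome libraries, against 66.6, 40.6 and 41.9 in vehicle polysome libraries, whereas the membrane anchor SDHC had 141, 149 and 136 with sorafenib, against 228, 394 and 249 with vehicle. SDHC fell by 1.03 ± 0.29 on the log2 scale (edgeR adjusted p = 0.00641), and the iron-sulfur subunit SDHB fell by 0.82 ± 0.25 (adjusted p = 0.0109). SDHD, the other anchor, was at -0.20 and did not pass. The polysome call of SDHB was lost in 6 of the 12 fits with 1 library left out (-0.54 at its smallest), and that of SDHC without vehicle polysome library 2 (-0.76, adjusted p = 0.0525). In the light fraction SDHC rose by 1.52 ± 0.30, so that its polysome change was lower than its light-fraction change by 2.55 ± 0.42 (adjusted p = 0.000295). Without both shallow sorafenib light libraries, which leaves library 3 alone in that group, the light-fraction change of SDHC was 0.81. With no filter on low counts its polysome change was -0.62 and did not pass (edgeR adjusted p = 0.317). DLD and SDHA had higher changes on polysomes than in the light fraction, by 1.68 and 1.81.

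Genes that bring pyruvate in or regulate pyruvate dehydrogenase showed no common direction. Of 13 listed, 12 were tested, since the kinase PDK4 had at most 2 counts in any library. On polysomes 2 rose (PC, pyruvate carboxylase, by 2.28 ± 0.27, and PDPR, a regulator of pyruvate dehydrogenase phosphatase, by 0.64) and 3 fell: the mitochondrial pyruvate carrier subunit MPC1 by 1.01 ± 0.38, the phosphatase PDP2 by 1.04 ± 0.36 and LIPT2, an octanoyltransferase of lipoate synthesis, by 1.74 ± 0.46. The calls of MPC1, PDP2 and PDPR were lost in 10, 8 and 4 of the 12 fits with 1 library left out. The median was -0.32, close to that of all genes, of which 20.9% were called higher and 28.8% lower. Light-fraction levels of MPC2, the other carrier subunit, and of the kinase PDK2 rose by 1.08 and 1.26, and PDP2 and PDPR fell by 2.04 and 1.11.

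Cytosolic counterparts and enzymes that feed the cycle from amino acids rose together on polysomes. All 8 tested genes of 10 listed passed, with a median of 1.52 (ME1 and ME3 had at most 3 counts in any library and were not tested). GLUD1, glutamate dehydrogenase, rose by 3.06 ± 0.39, and ACO1, the cytosolic aconitase that also binds iron-responsive elements, by 2.69 ± 0.27. IDH1 and MDH1, the cytosolic relatives of IDH2 and MDH2, rose by 1.28 and 1.55, and the aminotransferases GOT1 and GOT2 by 1.48 and 1.77. Of the 8, 5 also rose in the light fraction. Shares of all tested genes called higher were 20.9% on polysomes and 11.7% in the light fraction. With 1 library left out, 6 to 8 were called on polysomes and 2 to 5 in the light fraction, where GOT2 and GLUD1 lost their calls in 11 and 8 of 12 fits.

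Beside these, 11 of the 14 tested glycolytic genes rose on polysomes and none fell, with a median of 1.50, while 16 of 19 subunits of respiratory complexes III and IV fell and 2 rose, with a median of -1.28. The light-fraction counts were 7 of the 14 and 7 of the 19 higher, and none lower. Over all tested genes, 20.9% were called higher and 28.8% lower on polysomes, and 11.7% and 17.7% in the light fraction. The 9 TCA cycle and pyruvate dehydrogenase enzymes, at 1.13 on polysomes, thus had a polysome median nearer to glycolysis than to complexes III and IV. That did not hold in the light fraction, where the medians were 0.40 for the 9, 0.69 for glycolysis and 0.47 for complexes III and IV. No difference between the lists was tested.

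**Figure D4:**
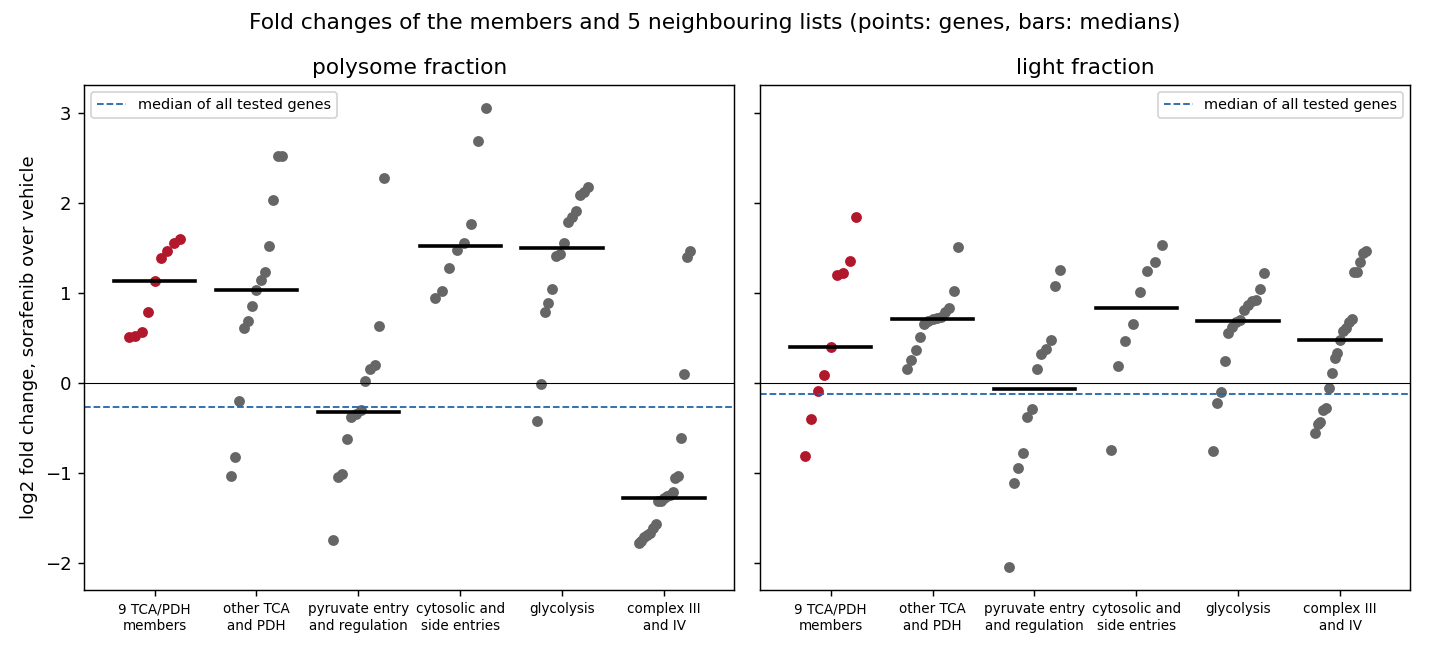
Log2 fold change of sorafenib over vehicle for each gene of the 9 enzymes and of the gene lists set beside them, in the polysome fraction and in the light fraction; points are genes and bars are list medians, with the median of all tested genes as a dashed line. The polysome median is 1.13 for the 9 enzymes, 1.50 for glycolysis and -1.28 for complexes III and IV.

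Together the 9 enzymes held 0.126, 0.114 and 0.130% of the counts of the sorafenib polysome libraries, against 0.0611, 0.0630 and 0.0633% in the vehicle polysome libraries. They held 0.0935, 0.0969 and 0.0809% of the sorafenib light libraries, against 0.0338, 0.0409 and 0.0349% of the vehicle light libraries. Sorafenib libraries were higher in both fractions with no overlap. These shares are scaled by library totals, under which the median light-fraction change of all tested genes was 0.29, against -0.12 with TMM. MDH2 held a large part of them: 1169 of 1926, 316 of 495 and 1807 of 4034 member counts in the sorafenib light libraries. In the vehicle light libraries it held 1185 of 3345, 1799 of 4885 and 1227 of 2581. The shares thus do not show a rise of every member. With levels averaged by group, 7 of the 9 enzymes were highest in the sorafenib polysome group, the exceptions being CS (vehicle light) and MDH2 (sorafenib light). This ranking depends on the scaling, since by library totals alone 9 of the 9 were highest in the sorafenib polysome group.

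Among themselves the 9 profiles were only partly alike over the 12 libraries. The pair IDH2 and PDHA1 was the closest, with a Pearson correlation of 0.91 in scaled log2 CPM, and the least alike pair stood at -0.39. These correlations are descriptions over libraries that share treatment, fraction and depth. Searching 4094 well-counted genes outside the 9 for the most similar profile gave, for 8 of them, OXA1L for CS (0.95), DCAF13 for IDH3A (0.89), CPSF1 for OGDH (0.97), BLMH for DLST (0.94), VDAC1 for SUCLG1 (0.95), ALDOA for FH (0.97), CKB for MDH2 (0.97) and LAMP1 for PDHA1 (0.95). WDR1, PPP2R1A and GNA13 were closest to the mean profile of the 9, at 0.99, 0.98 and 0.97.

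Overlapping genes and pseudogenes with rows in the table held few counts beside the members. PDHA1 overlaps MAP3K15, which had 335 counts over the 12 libraries beside 6745 for PDHA1, and IDH3A overlaps ACSBG1, with 31 beside 1620. The pseudogene rows DLSTP1, FHP1 and PDHA1P1 had 5, 3 and 2 counts in all. The sources used here do not say whether the counting used strand or how reads shared with such copies were assigned.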

How the data were processed

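RNA from 2 gradient fractions of 6 HepG2 cultures was sequenced as 12 libraries. The authors deposited raw read counts for each gene, in whole numbers without normalization. Per the submitters' processing notes the build is GRCh38.p12, and no aligner, annotation, counting tool or strand setting is named in these sources. The members, gene lists and tests were chosen with earlier results of these data known.

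The test was edgeR 4.0.16 under R 4.3.3 (limma 3.58.1): filterByExpr on the 4 groups left 14955 of 57353 rows, the 42398 untested rows held at most 4.54% of any library's counts, and TMM factors ranged from 0.637 to 1.41. The quasi-likelihood fit used 4 group means over all 12 libraries, with no block. Each gene had 1 estimate of spread, shared by the 4 groups. The common biological coefficient of variation, a summary over all tested genes, was 0.245. Calls are Benjamini-Hochberg adjusted p under 0.05 over all tested genes, and SE was obtained by dividing the size of each log2 change by the root of its F value. Levels are TMM-scaled CPM (counts scaled to library size); they are not divided by gene length, so no gene's level is set against another's. Correlations used log2 CPM with a prior count of 2, with candidates at a mean log2 of at least 5. The labels describe triplicate experiments; if these were not separate cultures, p-values cover only the spread between these libraries. Within groups, libraries differed by more than counting noise (chi-square of 8.82 to 46.1 per degree of freedom).

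Per the labels, equal numbers within a treatment mark 1 culture, which pairs the fractions; their deviations from group means correlated at 0.05, 0.04 and 0.04 in sorafenib cultures and 0.14, -0.07 and 0.33 in vehicle cultures. Alternatives covered scaling (DESeq2 1.42.0 size factors, library totals, another TMM reference), the filter, the DESeq2 Wald test, blocks, within-fraction fits and leaving out libraries. Leaving out both shallow sorafenib light libraries keeps only library 3 of that group, so those values rest on 1 library there. In the label of sorafenib polysome library 3 the index is that of vehicle light library 1; these sources do not name its run.

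The genes named by rule are the 9 members, 3 lists of related genes, and for likeness 1 gene for each of 8 members and 3 for the mean profile; some genes that this rule would name are not reported here. Cell markers, and genes or pseudogenes that overlap or copy a member, are named beside these. Symbols of 36210 rows, and of 9 of the 9 members, matched RefSeq genes of GRCh38.p14, from which the windows were taken. The edgeR steps were run on simulated counts that gave each gene the same spread in every group. The lower likeness of the sorafenib light libraries was therefore not covered by that run. Figures were drawn with matplotlib 3.10.9.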

Additional observations from a re-analysis of the deposited data

Results flagged for a closer look

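In 4 of the 9 enzymes the sorafenib response differed between the fractions by the interaction term of the edgeR fit. Over all tested genes, 12.8% were called higher and 10.7% lower by the same term. The polysome change minus the light-fraction change was 2.37 for OGDH, 1.55 for DLST and 1.54 for CS on the log2 scale, and -1.05 for IDH2. The value for OGDH lay between 2.13 and 3.21 over 19 alternatives and that for DLST between 1.15 and 2.39, and both stayed past the threshold in each. The value for CS lay between 1.15 and 2.22 and passed in 18 of them. The value for IDH2 lay between -1.35 and -0.48 and passed in 7. No single library was marked as standing apart, because groups of 3 are too small for that check.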

How the results depend on the processing

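For sorafenib against vehicle on polysomes, the 9 enzymes were higher in 20 of 20 alternatives, and MDH2, SUCLG1 and IDH3A passed the threshold in 13, 12 and 10 of them. In the light fraction IDH2, MDH2, PDHA1 and FH passed in 20 of 20; the count of members called lower was 0 to 1 when single libraries were left out, and calls over all genes, 4400, were 2754 to 4755. Where direction changed, the cause was not tested. With library totals the light-fraction changes of CS and DLST were 0.025 and 0.33, without both shallow sorafenib light libraries 0.24 and 0.58, and DLST was 0.031 within the fraction and 0.019 with another TMM reference; SUCLG1 was -0.0053 with no filter. Leaving out single libraries gave DLST -0.66 to 0.23 and SUCLG1 -0.41 to 0.39 there.

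Between fractions in sorafenib cells, 3857 genes were called, 6638 with library totals, 7202 with no filter, 2161 without both shallow libraries and 2627 to 5631 without single libraries. The 2 members called higher became 6, 5 and, without single libraries, 2 to 4, and members called lower became 1 by the DESeq2 Wald test. CS was 0.094 with library totals and 0.084 with no filter, and MDH2 0.063, 0.20 and, without both shallow libraries, 0.047. FH and SUCLG1 were both -0.027 with DESeq2 size factors, and -0.031 and -0.029 by the Wald test, and SUCLG1 was -0.37 without both shallow libraries. Without single libraries CS was -0.57 to 0.20, FH -0.061 to 0.42 and SUCLG1 -0.028 to 0.81. In vehicle cells library totals gave 8219 calls against 5401, 4 members higher, 1 lower, FH 0.50, OGDH 0.055 and SUCLG1 0.46; no filter gave 1 higher and 1 lower, and single libraries left out gave 1 to 2 higher, 2 to 3 lower and IDH3A -0.24 to 0.50. For the difference of responses, members called lower (1) became 2 by the Wald test and with library totals, and 0 with no filter. Their count was 0 to 1 without single libraries. IDH3A was -0.14 and PDHA1 -0.11 with library totals, and IDH3A -0.055 to 0.59 without single libraries.

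With the culture as a replicate block, the differences of responses were 2.41 for OGDH, 1.65 for DLST and 1.64 for CS, and the call for DLST between fractions in sorafenib cells (0.74) was the one member call that changed. Across treatments same-numbered libraries share only a number (correlations -0.20 to 0.02), and with that replicate block 6 members were called higher on polysomes and 4 in the light fraction, as without it (7306 and 4316 genes in all). The planned comparison with protein length was not run, because no protein table was used here, and levels per length were not computed for the same reason. The shallow sorafenib light libraries limit low-count members most, OGDH and IDH3A among them.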
